A study of Homo sapiens with 12 samples.

Results

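The labels of this series give each of its 12 RNA-seq libraries a sample number, and these numbers fall into a low set (2 to 12) and a high set (19 to 24). The high set holds 5 of the 12 libraries and the low set the other 7. The sets were formed from the labels alone, with no expression value. In A375 the high set is bead-positive replicate 3 and bead-negative replicates 2 and 3 (numbers 19 to 22), and the low set is bead-positive replicates 1 and 2 and bead-negative replicate 1 (numbers 2 to 5). In 253J the high set is replicate 3 of each bead status (numbers 23 and 24), and the low set is replicates 1 and 2 of each (numbers 8 to 12). The labels do not explain the numbers, and a difference between the sets cannot be told apart from a difference in anything else that libraries with nearby numbers shared.

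The 12 libraries come from 2 established human cancer cell lines, A375 (skin melanoma) and 253J (bladder transitional cell carcinoma). Cells were incubated for 24 h with 2.4 µm beads and sorted 5 times, with growth between the sorts. Bead-positive cells had taken up at least 1 bead at each sort and were kept as one population, and bead-negative cells, which had taken up none, were kept as the other. Every library of either number set therefore comes from a sorted population of 1 line that had met the beads, no unsorted control is among the 12, and nothing in the labels states that replicates were separate cultures. RNA was selected by its poly(A) tail, and levels are normalized read counts, that is, reads per gene divided by a factor per library, scaled within each line.

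The genes described below are known from several responses of cultured cells. SREBP transcription factors, released from the endoplasmic reticulum when sterols are low, raise the genes of cholesterol and fatty acid synthesis. ATF4 is made when the kinases of the integrated stress response are active and raises genes of amino acid supply. HSF1 drives chaperone genes, E2F factors drive the genes of DNA replication, YAP with TEAD drives genes such as CTGF and CYR61 in spread, well-attached cells, and MondoA with its partner Mlx raises TXNIP and ARRDC4 when glucose phosphates accumulate.

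The stretches of promoter below were chosen because each holds a short motif known for one of these factors, lies before the RefSeq start of a gene whose level differed between the sets in both lines, and touches no exon of a protein-coding gene in GENCODE. All are from the RefSeq promoter table on GRCh38.p14, read 5′ to 3′ on the strand of the gene, within the 250 bases before its start. The TXNIP stretch (chr1:145996610-145996709, minus strand) holds a pair of CACGNG motifs with 5 bases between them, the arrangement of a carbohydrate response element. The SREBF2 stretch (chr22:41832926-41833025, plus strand) holds TCACNCCAC, a sterol regulatory element. The MCM6 stretch (chr2:135876542-135876641, minus strand) holds TTTGGCGC, an E2F site. Capitals mark the motif, searched on both strands.
TXNIP: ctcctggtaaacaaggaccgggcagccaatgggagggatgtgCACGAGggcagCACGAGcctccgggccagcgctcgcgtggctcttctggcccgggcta
SREBF2: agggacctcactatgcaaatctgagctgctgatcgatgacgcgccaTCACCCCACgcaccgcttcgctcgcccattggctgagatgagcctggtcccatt
MCM6: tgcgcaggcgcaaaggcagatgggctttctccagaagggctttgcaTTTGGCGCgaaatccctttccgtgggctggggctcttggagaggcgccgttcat

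Among all 27305 promoters in the table, 0.0806% hold the spaced pair of CACGNG motifs, 3.19% hold TGATGNAA, 0.875% hold TCACNCCAC, 5.85% hold GAANNTTC and 0.553% hold TTTGGCGC in the 250 bases before the start. GAANNTTC is the core of heat shock elements and TGATGNAA that of ATF4 elements. Of the heat shock genes described below, 18 matched the table and 6 hold GAANNTTC. Of the ATF4 list, 21 matched and 3 hold TGATGNAA, and of the DNA replication list 32 matched and 4 hold TTTGGCGC. For the cholesterol list 18 matched and SREBF2 alone holds TCACNCCAC. A match is a description of the letters in the window and shows no binding.

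Recovered depth was 15104467 to 15543172 reads in the high set and 14576506 to 17916519 in the low set. Mitochondrial genes took 7.14% to 7.37% of reads in the A375 high set and 6.71% to 7.49% in its low set. In 253J they took 9.25% and, in bead-negative replicate 3, 10.6% in the high set, and 8.81% to 9.45% in the low set. Recovered reads of library pairs within a line and bead status were compared by a chi-square test over genes. It gave 1.25 to 1.63 per degree of freedom for pairs from 1 number set, slightly more than sampling noise. For pairs from different sets it gave 12.9 to 14.4 in A375. In 253J it gave 7.17 and 7.65 among bead-positive and 15.6 and 17.1 among bead-negative libraries. Libraries of 1 set were kept as separate replicates, so that p-values measure a spread between libraries that may be technical. The defining markers of each line were present in both sets. In A375 the pigment cell antigen PMEL was at 2504, 4506 and 4444 in the high set and 2819.6, 3092 and 2459 in the low set (values here and below are listed bead-positive first), and in 253J the epithelial keratin KRT18 was at 19528 and 14851 in the high set and 21858, 20226, 21214 and 20578 in the low set. The summed level of the 7 leukocyte markers that were matched was 58.8 to 133 in the A375 high set and 28.0 to 59.1 in its low set. In 253J it was 83.2 to 92.2 in the high set and 75.9 to 90.5 in the low set. Of the 7, 1 passed the filter on low values in A375, ITGAX. It was at 98.3, 42.5 and 38.8 in the A375 high set and 50.9, 28.4 and 18.0 in its low set, which overlap. The 9 matched stromal and vascular markers summed to 360 to 538 in the A375 high set and 387 to 522 in its low set, and to 24220 to 29150 against 23010 to 26490 in 253J. Most of that sum in 253J is RGS5, a single gene, and the part of other cells in any result was not tested. In bulk RNA, fewer cells of a type and less RNA per cell cannot be told apart.

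The distance between libraries gives the scale of the number-set difference. Among genes whose mean was 100 or more, the SD of the log2 difference between libraries of the same bead status and set was 0.110 to 0.112 in A375 and 0.101 to 0.111 in 253J. Between libraries of the same bead status but different sets it was 0.255 to 0.269 and 0.201 to 0.274. Between libraries of different bead status in 1 set it was 0.281 to 0.290 and 0.191 to 0.234. A change of number set thus separated libraries by about as much as a change of bead status in either line. In 253J the distance between sets was 0.201 and 0.209 among bead-positive and 0.261 and 0.274 among bead-negative libraries, each with 1 high-set library.

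**Figure D1:**
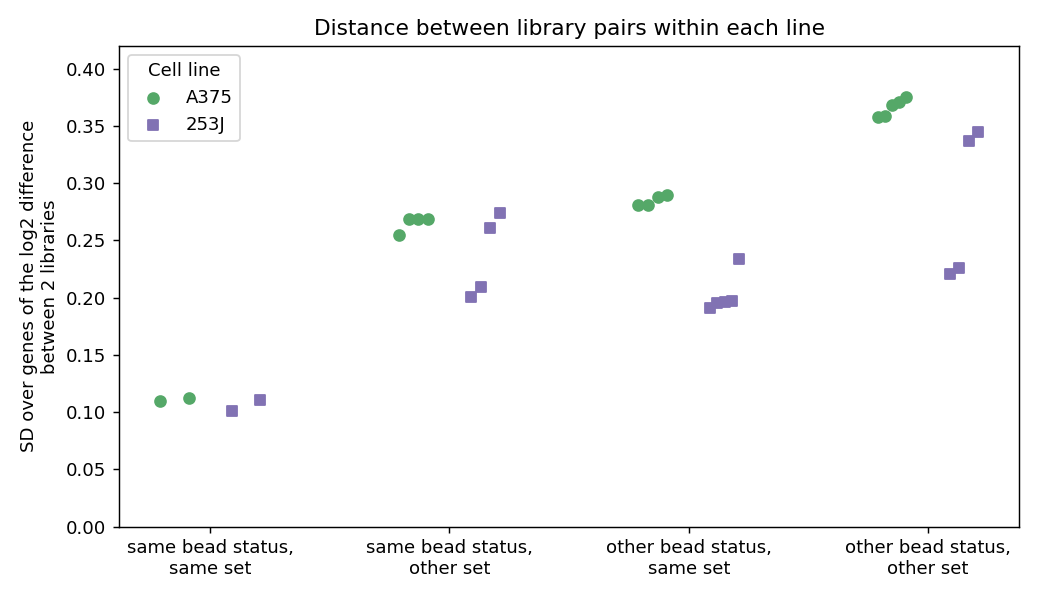
Each point is a pair of libraries of 1 cell line, and the y axis is the SD over genes of their log2 difference. Pairs of the same bead status and set lie at 0.101 to 0.112, below every other pair. Pairs that differ in both lie at 0.358 to 0.375 in A375 and 0.221 to 0.345 in 253J. In 253J the highest of these, 0.337 and 0.345, involve bead-negative replicate 3. The others, 0.221 and 0.226, lie below the 0.234 between the 2 high-set libraries.

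With bead status as a term, 5189 of 14118 genes differed between the sets in A375 (limma, adjusted p of 0.05 or less), 2592 higher in the high set (18.4% of genes tested) and 2597 lower (18.4%). DESeq2 called 3165 there, a fit without the bead-status term 1670 and one with a replicate block 1192. In 253J 4626 of 14189 genes differed, 2044 higher (14.4%) and 2582 lower (18.2%). Most differences were small. The median size among called genes was 0.26 on the log2 scale in either line, and 193 genes in A375 and 86 in 253J were called with at least a 2-fold difference. Without 253J bead-negative replicate 3 the 253J count was 3031, by DESeq2 2627 and without the bead-status term 1427. The fit across both lines, with 1 common difference, called 4383 of 12509 genes, 1942 higher (15.5%) and 2441 lower (19.5%). The excess of lower genes depended on the method, as edgeR called 2436 higher and 2245 lower there, and DESeq2 1968 and 1934. Fits with same-set libraries averaged to 1 value called 2486 genes in 253J and 2200 across both lines.

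The 2 lines have no library in common, so the same set difference is measured in each on its own. Of the 12509 genes tested in both, 2294 were called in each line alone, 2038 in the same direction and 256 in opposite directions. Among these 12509, the 2038 make 43.7% of the genes called in A375 and 47.7% of those called in 253J. The count in the same direction was 1061 by DESeq2, 1185 with same-set libraries averaged and 388 without the bead-status term. The 2038 comprise 760 higher (6.08% of genes tested in both) and 1278 lower in the high set (10.2%). The lines also differed: the set difference itself differed between them for 1951 genes, 744 with a more positive difference in 253J (5.95%) and 1207 with a more negative one (9.65%). Without A375 bead-negative replicate 1, the only low-set library of its bead status in that line, 1205 genes were called, and with same-set libraries averaged 845.

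**Figure D2:**
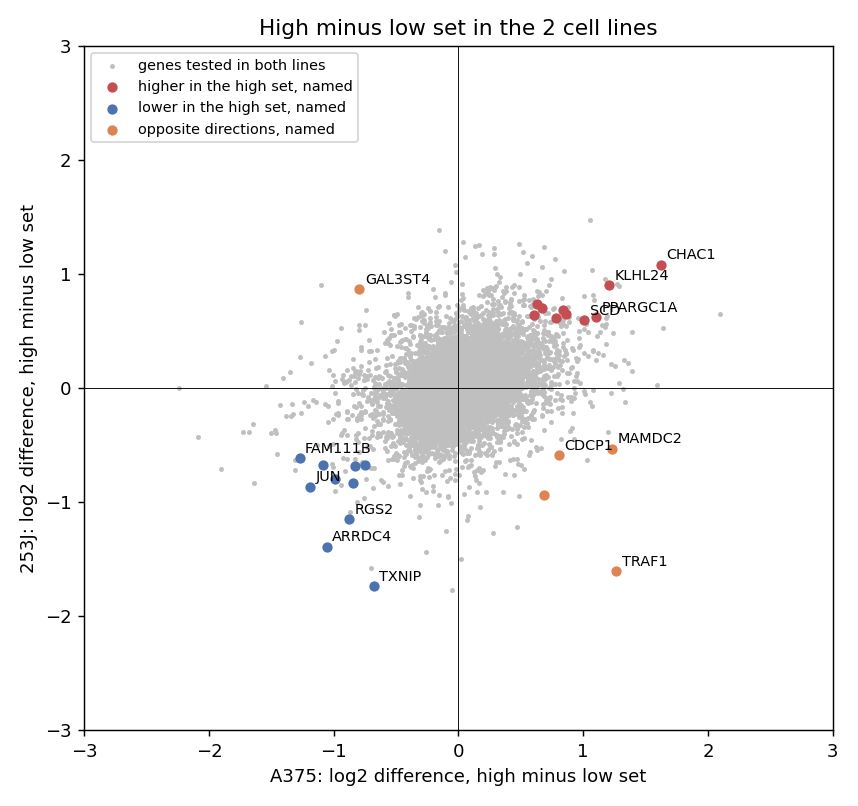
Each point is 1 of 12509 genes, placed by its log2 difference (high minus low set) in A375 on the x axis and in 253J on the y axis. Named genes higher in both lines (red, such as CHAC1) and lower in both (blue, such as ARRDC4) lie far from 0 on both axes, and TRAF1 is higher in A375 and lower in 253J. The named genes were chosen for the size of these differences.

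Genes of lipid synthesis were higher in the high set, more so in A375. Here and below, genes named by rule as the largest shared differences, or the largest of 1 line, had to show no overlap there. For them the lack of overlap is a condition of the choice and adds no support. SCD, the desaturase that makes monounsaturated fatty acids (chr10:100347124-100364834 on GRCh38), was at 9862, 9898 and 10069 in the high set and 4653, 4795 and 5139.6 in the low set of A375. In 253J it was at 13559 and 15053 in the high set and 8648, 8058, 10724 and 10655 in the low set. The sets did not overlap in either line, and the log2 difference was 1.01 ± 0.03 (SE; adjusted p = 2.34e-21) in A375 and 0.60 ± 0.04 (SE; adjusted p = 7.96e-09) in 253J. INSIG1, which retains SREBP in the endoplasmic reticulum and is itself an SREBP target (chr7:155297776-155310235), was at 2223, 2174 and 2152 in the high set and 796, 782 and 887 in the low set of A375 and at 1717 and 1559 in the high set and 1080.0, 1123, 1202 and 1265 in the low set of 253J. Its log2 difference was 1.39 ± 0.04 (SE; adjusted p = 6.79e-21) in A375 and 0.49 ± 0.06 (SE; adjusted p = 2.21e-06) in 253J, and the difference between the lines was -0.90 ± 0.08 (SE; adjusted p = 2.75e-07). SREBF2, the factor of cholesterol synthesis whose promoter stretch is shown above, was at 5062, 5031 and 4909 in the high set and 3067, 3076 and 3129.9 in the low set of A375. In 253J its values were 3576 and 3548 in the high set and 2600.5, 2570.2, 2803 and 2727 in the low set. All high-set libraries lay above all low-set libraries in both lines, with log2 differences of 0.69 ± 0.03 (SE; adjusted p = 4.01e-17) and 0.41 ± 0.04 (SE; adjusted p = 3.14e-07).

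Over the list of cholesterol synthesis and uptake, 20 of 23 were called higher and 0 lower, with a median log2 difference of 0.49 in A375. In 253J 13 of 23 were called higher and 1 lower, with a median log2 difference of 0.20. For all genes tested the medians were 0.00 in both lines. Of these genes, 18.4% were called higher and 18.4% lower in A375, and 14.4% and 18.2% in 253J. The counts of this list and of those below are to be read beside these shares. The members include HMGCS1, at the start of the mevalonate pathway (log2 difference 0.52 in A375 and 0.20 in 253J, called in both), and DHCR7, the last enzyme of one branch (0.86 and 0.30, called in both). TM7SF2, a sterol reductase, was called in both lines (0.59 and 0.65), but without A375 bead-positive replicate 3 its A375 value was 0.56 with an adjusted p of 0.141.

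Of the fatty acid synthesis list, 11 of 15 were called higher and 2 lower, with a median log2 difference of 0.35 in A375, and in 253J 5 of 14 were called higher and 2 lower, with a median log2 difference of 0.06. FASN, fatty acid synthase, was called in A375 (0.46) and stood at -0.03 in 253J, not called. LPIN1, a phosphatidate phosphatase, was called in both lines at 0.52 and 0.36. ELOVL1 and ELOVL6, which elongate fatty acids, were the 2 members called lower in each line, at -0.29 and -0.16 in A375 and -0.20 and -0.13 in 253J.

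CHAC1, a glutathione-degrading enzyme and ATF4 target (chr15:40952962-40956519), had the largest difference shared by both lines among the genes named by rule. It was at 636, 952 and 918 in the high set and 227, 187 and 301 in the low set of A375 and at 123 and 122 in the high set and 53.5, 56.9, 54.0 and 65.9 in the low set of 253J. The lowest high-set library of each line stood above the highest low-set one. Log2 differences were 1.62 ± 0.07 (SE; adjusted p = 6.19e-18) in A375, 3.08-fold, and 1.08 ± 0.15 (SE; adjusted p = 1.26e-05) in 253J, 2.12-fold. The rest of the ATF4 list divided by line. In 253J 19 of 29 were called higher and 1 lower, with a median log2 difference of 0.25, among them ASNS, asparagine synthetase (0.86), PHGDH and PSAT1 of serine synthesis (0.42 and 0.34) and the mRNA of ATF4 itself (0.30). In A375 10 of 29 were called higher and 6 lower, with a median log2 difference of 0.03. There ASNS was called at 0.20, SESN2 was called lower at -0.42, and PHGDH and PSAT1 stood at 0.04 and -0.04, not called. The set difference between the lines was called more positive in 253J for 14 of 28 members and more negative for 1. PCK2, a mitochondrial carboxykinase and ATF4 target, was called in both lines at 0.45 and 0.49.

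Other genes higher in both lines belong to mitochondrial metabolism. PPARGC1A, a coactivator of mitochondrial gene transcription, was at 683, 693 and 691 in the high set and 338, 381 and 283 in the low set of A375. In 253J it was at 272 and 411 in the high set and 184, 180.3, 260.1 and 257 in the low set. No libraries overlapped between sets, and the log2 differences were 1.10 ± 0.07 (SE; adjusted p = 9.81e-14) and 0.62 ± 0.08 (SE; adjusted p = 7.69e-06). OGDHL, a subunit of an oxoglutarate dehydrogenase, was called at 0.83 in A375 and 0.69 in 253J. ALDH6A1, of valine breakdown, was called at 0.67 and 0.70, and PC, pyruvate carboxylase, at 0.60 and 0.64. Without 253J bead-positive replicate 3 the 253J value of PC was 0.37, with an adjusted p of 0.129. Among nuclear genes of the respiratory chain, 23 of 37 were called higher and 0 lower, with a median log2 difference of 0.12 in A375, and 21 of 37 were called higher and 2 lower, with a median log2 difference of 0.14 in 253J. Of those called higher, the sets did not overlap for 17 of 23 in A375 and 9 of 21 in 253J. The changes were small: UQCRC2, a core subunit of complex III, was called at 0.19 and 0.21. Of the 13 mitochondrially encoded messages, 5 were called higher and 4 lower in A375, and 7 higher and 1 lower in 253J. MT-ATP6, of the ATP synthase, was called higher in both lines (0.17 and 0.25), and MT-ND1, of complex I, lower (-0.39 and -0.16).

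KLHL24, an adaptor of a ubiquitin ligase that turns over keratin, was at 245, 267 and 306 in the high set and 106, 109.7 and 121 in the low set of A375 and 146 and 169.6 in the high set and 68.4, 87.5, 101 and 81.8 in the low set of 253J. The log2 differences were 1.21 ± 0.10 (SE; adjusted p = 3.43e-11) and 0.90 ± 0.14 (SE; adjusted p = 3.87e-05), with no overlap in either line. The remaining genes that the rule named as higher in both were PBXIP1 (0.63 and 0.74), VWA5A (0.78 and 0.62) and the long non-coding RNA AC144652.1 (0.86 and 0.65). The calls of AC144652.1 rested on 1 library in each line, with 0.46 (adjusted p = 0.166) without A375 bead-negative replicate 1 and 0.37 (adjusted p = 0.253) without 253J bead-negative replicate 3. MALAT1, a nuclear RNA, was called higher in both lines at 0.55 ± 0.04 (SE; adjusted p = 5.66e-13) and 0.52 ± 0.05 (SE; adjusted p = 2.69e-07). Of lysosomal and autophagy genes, 16 of 30 were called higher and 1 lower, with a median log2 difference of 0.15 in A375, and 11 of 30 were called higher and 0 lower, with a median log2 difference of 0.07 in 253J. GABARAPL1, an autophagosome protein, was called at 0.60 and 0.47, and NAGLU, a lysosomal glycosidase, at 0.44 and 0.27.

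**Figure D3:**
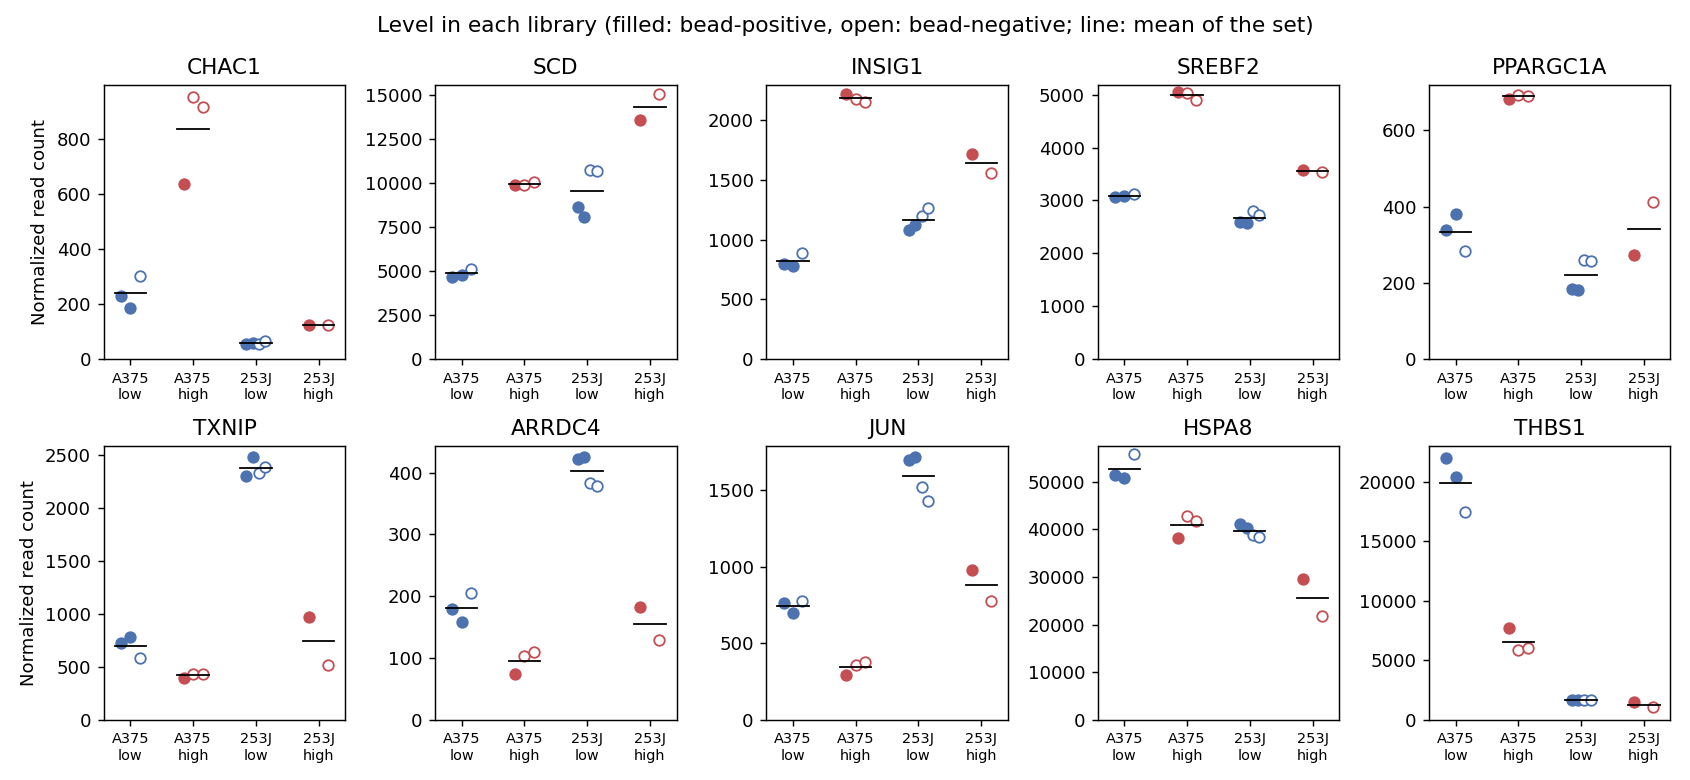
Normalized read count of 10 genes in each of the 12 libraries, by line and number set, with filled points for bead-positive and open points for bead-negative libraries and a line at the mean of the set. High-set libraries lie above low-set ones in both lines for CHAC1, SCD, INSIG1, SREBF2 and PPARGC1A and below them for TXNIP, ARRDC4, JUN, HSPA8 and THBS1, and the y axes differ between genes.

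TXNIP and ARRDC4, related arrestins that limit glucose uptake and follow the cell's glucose supply, were lower in the high set. TXNIP (chr1:145992435-145996600) was at 970.2 and 521 in the high set and 2300.0, 2484, 2329 and 2384 in the low set of 253J. In A375 it was at 393, 434 and 431 in the high set and 724, 783 and 579.5 in the low set. ARRDC4 (chr15:97960698-97973838) was at 182 and 128 in the high set and 421, 426, 382 and 379 in the low set of 253J and at 74.0, 104 and 109.5 in the high set and 179.6, 159 and 204 in the low set of A375. High-set libraries lay below low-set libraries for both genes in both lines. For TXNIP the log2 difference was -1.74 ± 0.11 (SE; adjusted p = 5.78e-10) in 253J, 3.34-fold lower, and -0.68 ± 0.07 (SE; adjusted p = 1.45e-08) in A375, and the lines differed by -1.06 ± 0.18 (SE; adjusted p = 0.000307). For ARRDC4 it was -1.39 ± 0.08 (SE; adjusted p = 5.78e-10) and -1.06 ± 0.12 (SE; adjusted p = 1.44e-08), and the line difference of -0.33 ± 0.14 (SE; adjusted p = 0.127) was not called. Without 253J bead-positive replicate 3, ARRDC4's line difference was -0.50 with an adjusted p of 0.0327.

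The lines differed in size for glucose and oxygen genes. SLC2A1, the glucose transporter GLUT1, was at 2447, 2258 and 2239.6 in the high set and 3934, 3737 and 3696 in the low set of A375 and 2811 and 2401 in the high set and 4071, 4025, 3587 and 3377 in the low set of 253J. It was lower in the high set of both lines with no overlap, at -0.68 ± 0.04 (SE; adjusted p = 4.08e-16) and -0.53 ± 0.04 (SE; adjusted p = 9.25e-09). Of glycolytic enzymes and lactate dehydrogenases, 0 of 20 were called higher and 15 lower, with a median log2 difference of -0.17 in 253J, while in A375 5 of 20 were called higher and 7 lower, with a median log2 difference of -0.05. GAPDH was not called in either line (-0.01 and -0.09). Leaving out either high-set library of 253J gave GAPDH values of -0.08 and -0.10 that passed the test (adjusted p = 0.00177 and 0.000383). Of the hypoxia list, 1 of 20 were called higher and 16 lower in 253J, with a median log2 difference of -0.34. In A375 4 of 22 were called higher, near the share of all genes tested (18.4%). There 8 were called lower, and the median log2 difference was 0.00. ADM, the vasodilator peptide adrenomedullin, was lower in both, at 395, 514 and 518 in the high set and 877, 861 and 1059 in the low set of A375 and 156 and 191 in the high set and 302, 307, 252 and 249.7 in the low set of 253J, with log2 differences of -1.08 ± 0.05 (SE; adjusted p = 1.46e-16) and -0.67 ± 0.10 (SE; adjusted p = 4.56e-05). PFKFB4, which sets the level of a glycolytic activator, was called higher in A375 (1.20) and lower in 253J (-0.38).

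Chaperone genes were lower in the high set in both lines. Of heat shock genes, 0 of 20 were called higher and 16 lower, with a median log2 difference of -0.25 in A375, and 0 of 19 were called higher and 18 lower, with a median log2 difference of -0.34 in 253J. The fit across both lines called 19 of 19 lower. HSPA8, the constitutive HSP70 chaperone (chr11:123057489-123063230), was at 38227, 42899.7 and 41858 in the high set and 51368, 50831 and 55881 in the low set of A375. In 253J it was at 29519 and 21801 in the high set and 41164, 40369.9, 38796 and 38296 in the low set. DNAJA1, an HSP40 partner of HSPA8, was at 3852, 3909 and 3739 in the high set and 5261, 5612 and 5222 in the low set of A375 and 4555 and 3579 in the high set and 6193, 6300.1, 6044 and 5856 in the low set of 253J. High-set libraries lay below low-set libraries of the same line for both genes. Log2 differences were -0.41 ± 0.03 (SE; adjusted p = 1.7e-13) and -0.64 ± 0.05 (SE; adjusted p = 4.68e-08) for HSPA8 and -0.47 ± 0.03 (SE; adjusted p = 9.82e-13) and -0.59 ± 0.05 (SE; adjusted p = 3.23e-08) for DNAJA1. The inducible HSPA1A was called at -0.43 and -0.60, HSPH1 at -0.45 and -0.76, and HSP90AA1 at -0.39 and -0.50. HSPA1A and HSPA1B are near-identical copies whose reads can be split between them. In 253J the median was -0.54 among bead-negative and -0.21 among bead-positive libraries, and the DNA replication list described below likewise had -0.37 and -0.17. In A375 the medians of the heat shock list were -0.22 and -0.25.

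Endoplasmic reticulum chaperones and stress genes of the unfolded protein response had smaller differences. In A375 1 of 20 were called higher and 11 lower, with a median log2 difference of -0.10, and in 253J 1 of 20 were called higher and 11 lower, with a median log2 difference of -0.12. XBP1, a transcription factor of that response, was called at -0.23 and -0.21, and CALR, a calcium-binding chaperone, at -0.21 and -0.11. The 253J call of CALR ended when any of 4 libraries was left out, and without bead-negative replicate 3 its value was -0.04 (adjusted p = 0.305). Of ribosome biogenesis and MYC target genes, 1 of 25 were called higher and 17 lower, with a median log2 difference of -0.16 in A375, and 1 of 25 were called higher and 21 lower, with a median log2 difference of -0.27 in 253J. NOP56 and NOP2, nucleolar proteins of rRNA modification, had called values of -0.32 and -0.30 (A375) and of -0.27 and -0.27 (253J). Of cytosolic ribosomal protein genes, 6 of 52 were called higher and 3 lower in A375, and 22 of 52 higher and 0 lower in 253J. Their differences were small, with a median log2 difference of 0.01 in A375 and 0.09 in 253J. For 43 of the 52 the 253J difference was larger in size among bead-negative libraries, which include 1 high-set library. Of the 22 called in 253J, 3 had sets that did not overlap. Among splicing factors with poison exons, 0 of 20 were called higher and 12 lower, with a median log2 difference of -0.12 in A375, and 2 of 20 were called higher and 12 lower, with a median log2 difference of -0.15 in 253J. SRSF2, one of them, was called at -0.31 and -0.30.

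DNA replication genes were lower in the high set of both lines, with 32 of 40 called lower in A375, 34 of 40 in 253J and none called higher in either by limma. The medians were -0.24 and -0.27. CCNE2, cyclin E2, which drives entry into S phase, was at 231, 237 and 203 in the high set and 382, 397 and 423 in the low set of A375 and 71.0 and 54.2 in the high set and 126, 112, 94.4 and 114 in the low set of 253J, without overlap. Its log2 difference was -0.85 ± 0.08 (SE; adjusted p = 8.06e-10) and -0.83 ± 0.14 (SE; adjusted p = 9.41e-05). MCM6, a subunit of the replicative helicase whose promoter stretch is shown above, was called at -0.29 and -0.29. UHRF1, which maintains DNA methylation at replication, was called at -0.57 and -0.44, PCNA, the polymerase clamp, at -0.33 and -0.30, and E2F1 at -0.34 and -0.42. RRM2, a subunit of ribonucleotide reductase, was called at -0.49 and -0.63. FAM111B, a protease, was at 56.8, 95.9 and 109.5 in the high set and 164, 142 and 226 in the low set of A375 and 584 and 402 in the high set and 776, 752, 709 and 733 in the low set of 253J. Its sets did not overlap, and the differences were -1.27 ± 0.12 (SE; adjusted p = 1.01e-09) and -0.61 ± 0.07 (SE; adjusted p = 3.97e-06).

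Mitotic genes did not follow the replication genes in A375. Of 40, 9 were called higher and 7 lower in A375, near the shares of all genes tested there (18.4% and 18.4%). In 253J 26 were called lower and 0 higher, where the shares were 18.2% and 14.4%. The median difference in 253J was -0.08 among bead-positive and -0.28 among bead-negative libraries. For 38 of the 40 the 253J difference was larger in size among bead-negative libraries. These include 1 high-set library, whose own properties cannot be told apart from those of the set. The set difference differed between the lines for 20 of the 40, each with the more negative value in 253J. MKI67, the proliferation antigen Ki-67, was at 7706, 8198 and 8569 in the high set and 8305, 7768 and 8181 in the low set of A375, which overlap, and 15610.2 and 12039 in the high set and 16921, 16950.0, 16183 and 15643 in the low set of 253J. Its log2 difference was -0.01 ± 0.03 (SE; adjusted p = 0.804) in A375 and -0.26 ± 0.05 (SE; adjusted p = 0.000254) in 253J. CDC20 and BIRC5, of mitotic exit and spindle function, were called lower in both lines (-0.27 and -0.19 in A375, -0.36 and -0.27 in 253J). CCND1, cyclin D1, was called at -0.25 and -0.27.

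Among genes that the rule named as lower in both lines, JUN, a subunit of the AP-1 transcription factor, was at 295, 359 and 375.3 in the high set and 761, 700.0 and 772 in the low set of A375 and 980.3 and 773 in the high set and 1693, 1717, 1518 and 1430.4 in the low set of 253J. FOSL1, another AP-1 subunit, was at 3205, 3805 and 4045 in the high set and 5648, 4962 and 6689 in the low set of A375 and 1086 and 1087 in the high set and 1829.5, 1698, 1747 and 1654 in the low set of 253J. RGS2, a regulator of G-protein signalling, was at 122, 132 and 116 in the high set and 219, 209 and 238 in the low set of A375 and 402 and 327 in the high set and 766, 861, 807 and 791 in the low set of 253J. For all 3 genes each high-set library was below each low-set library of its line. Log2 differences in A375 and 253J were -1.19 ± 0.07 (SE; adjusted p = 1.59e-15) and -0.86 ± 0.05 (SE; adjusted p = 3.18e-10) for JUN. For FOSL1 they were -0.75 ± 0.04 (SE; adjusted p = 4.89e-16) and -0.67 ± 0.05 (SE; adjusted p = 4.8e-09), and for RGS2 -0.88 ± 0.10 (SE; adjusted p = 4.71e-08) and -1.15 ± 0.07 (SE; adjusted p = 5.29e-10). The immediate early list as a whole was mixed, with 11 of 24 called higher and 3 lower in A375 and 6 of 23 higher and 10 lower in 253J. EGR1, a zinc finger factor of that list, was called higher in both (0.52 and 0.39), but without 253J bead-negative replicate 3 the 253J value was 0.28 (adjusted p = 0.0619).

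YAP-TEAD targets were lower in the high set, with the larger differences in A375. There 1 of 22 were called higher and 16 lower, with a median log2 difference of -0.60, and in 253J 2 of 21 were called higher and 12 lower, with a median log2 difference of -0.22. CTGF and CYR61, secreted matricellular proteins, had called values of -1.38 and -1.34 (A375) and of -0.24 and -0.24 (253J). AMOTL2, a junction protein, was called at -1.20 and -0.16. IGFBP3, a carrier of insulin-like growth factors that responds to many signals, had the larger difference in 253J. It was at 2168 and 657 in the high set and 5130.4, 5234, 2491 and 2404 in the low set of 253J and, overlapping, at 2276, 6759.9 and 6841 in the high set and 4931, 4580.5 and 8652 in the low set of A375, with log2 differences of -1.58 ± 0.08 (SE; adjusted p = 1.23e-10) and -0.70 ± 0.07 (SE; adjusted p = 3.44e-09). ACTB, cytoplasmic actin, was at 63939, 61912 and 61635 in the high set and 87536, 82470.0 and 81836 in the low set of A375, a log2 difference of -0.41 ± 0.03 (SE; adjusted p = 5.99e-13), and at 68586 and 57230.1 in the high set and 78569, 77691, 66706 and 66136 in the low set of 253J, where the sets overlap and the difference was -0.20 ± 0.04 (SE; adjusted p = 0.000367). TPM1 and FLNA, which bind actin filaments, were called at -0.85 and -0.56 in A375 and -0.23 and -0.19 in 253J. Of the whole serum response list, 12 of 19 were called lower and 3 higher in A375, and 8 of 17 lower and 2 higher in 253J. ACTA2, smooth muscle actin, was called lower in A375 (-0.54) and higher in 253J (0.47).

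**Figure D4:**
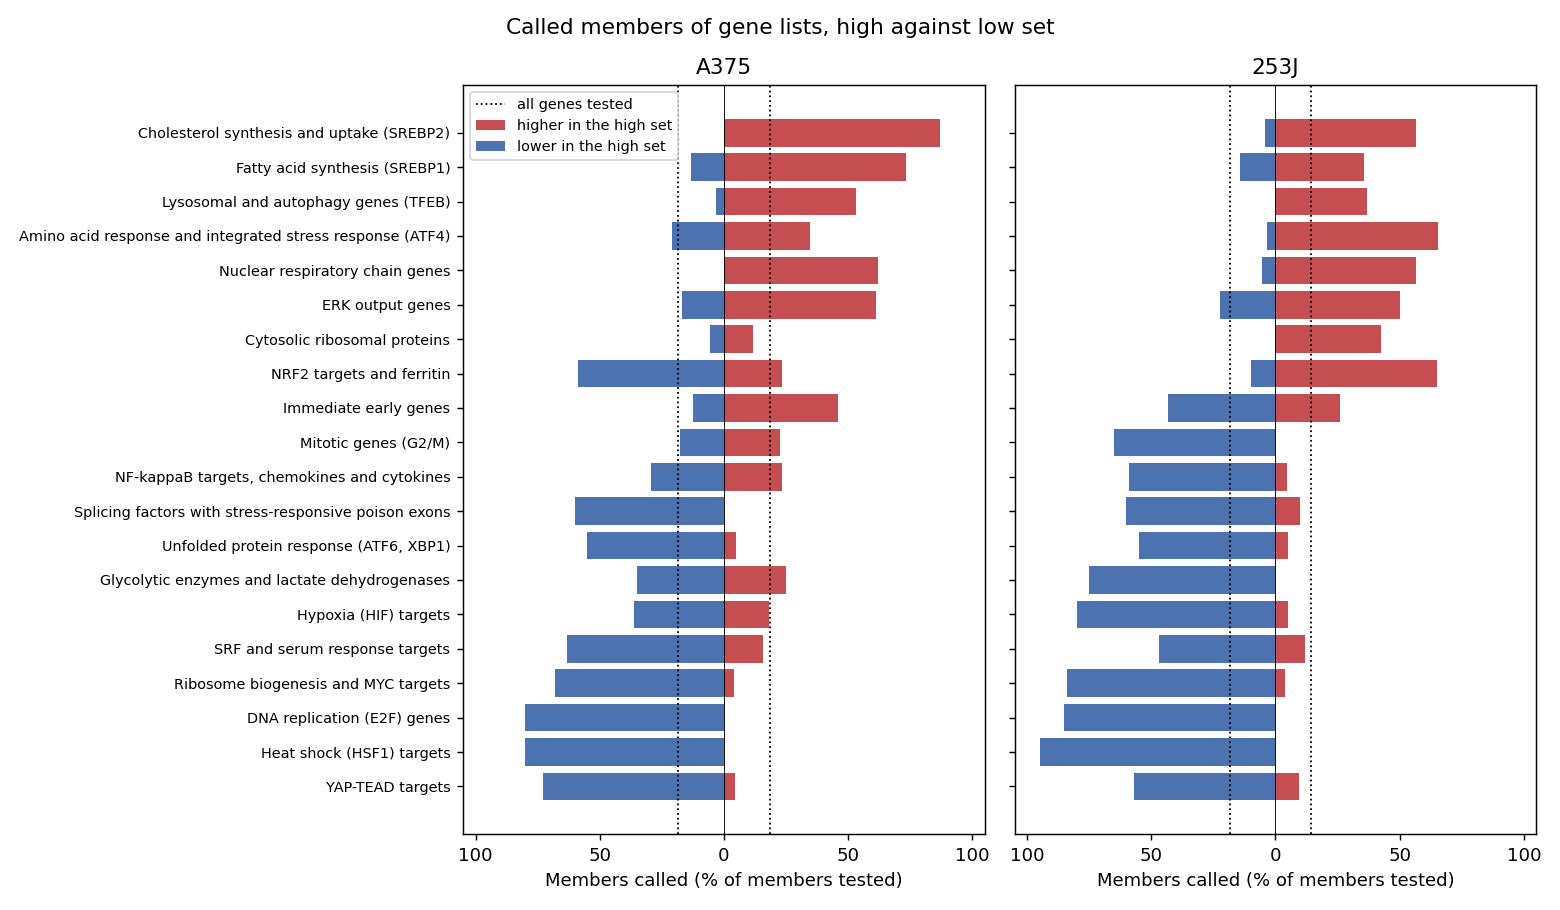
Share of the tested members of 20 gene lists called higher (red, to the right) or lower (blue, to the left) in the high set, for A375 and 253J, with dotted lines at the share of all genes tested. Cholesterol genes lie to the right in both lines, and heat shock, DNA replication and YAP-TEAD genes to the left in both.

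Some genes differed between sets mostly in A375. THBS1, thrombospondin, a matrix glycoprotein (chr15:39581079-39599466), was at 7712, 5841 and 6012 in the high set and 21975, 20355 and 17432 in the low set of A375. In 253J it was at 1506 and 1050.5 in the high set and 1692, 1641, 1660.1 and 1634 in the low set. The sets did not overlap, and the log2 differences were -1.51 ± 0.03 (SE; adjusted p = 1.21e-25) and -0.40 ± 0.07 (SE; adjusted p = 0.000206), with a line difference of 1.11 ± 0.10 (SE; adjusted p = 1.61e-07). CXCL1, a neutrophil chemokine, was at 203, 172 and 204 in the high set and 694, 694 and 606 in the low set of A375, a log2 difference of -1.73 ± 0.07 (SE; adjusted p = 5.99e-18). Its 253J values, 361 and 212 in the high set and 433, 436, 293 and 305 in the low set, overlap, and the difference there was -0.38 ± 0.08 (SE; adjusted p = 0.000602). DKK1, a secreted Wnt inhibitor, was at 94.2, 186 and 173 in the high set and 652, 669.8 and 760.0 in the low set of A375, 5.41-fold lower in the high set (-2.44 ± 0.10 (SE; adjusted p = 1.41e-18)), and at most 1.9 in any 253J library. B3GALT2, a galactosyltransferase, was at 23.3, 24.7 and 21.9 in the high set and 168, 146 and 184 in the low set of A375 (-2.81 ± 0.16 (SE; adjusted p = 9.14e-15)). IL7R, the interleukin 7 receptor, was at 22.3, 7.9 and 10.9 in the high set and 119, 109.7 and 99.7 in the low set of A375 (-2.80 ± 0.23 (SE; adjusted p = 1.79e-11)), and listed at 0 in all 253J libraries. KRTAP2-3 (-2.69), COL8A1, a short-chain collagen (-1.90), and TM4SF18 (-1.65) completed the 8 largest falls in A375, for which the rule required no overlap.

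Genes higher in the A375 high set by the same rule had varied roles. FCRLA was at 507, 603 and 600.2 in the high set and 170.3, 189 and 174 in the low set of A375 (1.64 ± 0.08 (SE; adjusted p = 1.06e-16)), and at most 1.1 in any 253J library. A2M, a secreted protease inhibitor, was at 841, 1484 and 1438 in the high set and 278, 276 and 536 in the low set of A375 (1.52 ± 0.06 (SE; adjusted p = 8.37e-20)). DLL4, a Notch ligand, was at 153, 276 and 243 in the high set and 51.9, 62.4 and 82.8 in the low set of A375 (1.52 ± 0.12 (SE; adjusted p = 2.49e-11)). GAPDHS (1.63), CAPN3, a calpain protease (1.57), and OLMALINC, a non-coding RNA beside SCD on chromosome 10 (1.36), were also among the 8, with CHAC1 and INSIG1. OLMALINC was not called in 253J (0.22), and its line difference was -1.14 ± 0.17 (SE; adjusted p = 0.00013).

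Pigment cell markers in A375 were mostly higher in the high set. Of 14 tested, 11 were called higher and 1 lower, with a median of 0.40. The median was 0.28 among bead-positive and 0.53 among bead-negative libraries. For 13 of the 14 the larger difference was among bead-negative libraries, which include only 1 low-set library, so a property of that library cannot be told apart. MITF, the lineage transcription factor, was called at 0.58, DCT, a melanin enzyme, at 0.83, and S100B lower at -0.31. MLANA was at 80.1, 94.0 and 65.7 in the high set and 69.6, 66.2 and 41.9 in the low set of A375, which overlap, with a log2 difference of 0.56 ± 0.17 (SE; adjusted p = 0.0114), and without bead-negative replicate 1 the value was 0.24 (adjusted p = 0.478). For PMEL the direction rested on bead status. The log2 difference between sets was -0.24 among bead-positive and 0.86 among bead-negative libraries. Over both it was 0.31 ± 0.11 (SE; adjusted p = 0.0205), and without bead-negative replicate 1 it was -0.24.

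In 253J the rule's largest rises and falls included genes not called in A375. ABAT, which breaks down the transmitter GABA, was at 108 and 138 in the high set and 52.4, 53.8, 42.4 and 55.4 in the low set of 253J (1.25 ± 0.16 (SE; adjusted p = 9e-06)), and was not called in A375 (0.13). PPL, a desmosomal plakin of epithelia, was at 178 and 232 in the high set and 90.9, 77.0, 89.6 and 109.9 in the low set of 253J (1.15 ± 0.12 (SE; adjusted p = 1.08e-06)). HDAC5, a histone deacetylase, was at 262 and 334 in the high set and 123, 142, 159.9 and 167 in the low set of 253J (1.00 ± 0.10 (SE; adjusted p = 3.02e-07)), and called at 0.49 in A375. RAB26, a vesicle GTPase, was called in both lines (1.07 and 1.03). TMEM252 (1.09) and the antisense RNAs RP5-1092A3.4 (1.13) and RP11-600F24.7 (0.95) were the other rises, the last with 0.57 (adjusted p = 0.0975) without bead-negative replicate 3. Among falls, CORO2B, an actin-binding coronin, was at 91.3 and 58.2 in the high set and 206, 175, 150.3 and 158 in the low set of 253J (-1.22 ± 0.12 (SE; adjusted p = 3.59e-07)), and MARCH4, a membrane ubiquitin ligase, at 96.4 and 54.2 in the high set and 207, 177, 139.7 and 150.3 in the low set of 253J (-1.19 ± 0.12 (SE; adjusted p = 6.64e-07)). The mitochondrial transfer RNA MT-TF was called at -1.13. Of epithelial and urothelial markers, 4 of 10 were called higher and 3 lower in 253J. CLDN4 and JUP, of cell junctions, were called higher (0.65 and 0.49), although without bead-positive replicate 3 the CLDN4 value was 0.52 (adjusted p = 0.0907). The keratins were called lower, KRT18 at -0.30 ± 0.06 (SE; adjusted p = 0.000416) and KRT8 at -0.21 ± 0.05 (SE; adjusted p = 0.002). Without bead-negative replicate 3 the KRT8 value was -0.07 (adjusted p = 0.106). In A375, where KRT8 is low, it was at 114, 145 and 140.4 in the high set and 74.7, 92.7 and 114 in the low set, called at 0.39.

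The rule for opposite directions named 5 genes. TRAF1, an adaptor of tumour necrosis factor receptors, was at 62.8, 78.1 and 70.7 in the high set and 21.8, 18.0 and 38.9 in the low set of A375 and 58.9 and 40.1 in the high set and 162, 208, 115 and 130.1 in the low set of 253J. It was higher in the A375 high set (1.27 ± 0.21 (SE; adjusted p = 1.1e-05)) and lower in that of 253J (-1.60 ± 0.13 (SE; adjusted p = 4.54e-08)), with no overlap in either line. CDCP1, a surface protein phosphorylated by Src kinases, was called at 0.81 in A375 and -0.59 in 253J. TMEM158, a membrane protein induced by Ras, was called at 0.69 and -0.94. MAMDC2 was called at 1.23 and -0.53, and GAL3ST4, a sulfotransferase, at -0.79 and 0.86. In 253J GAL3ST4 was low, at 21.3 and 25.1 in the high set and 11.8, 12.7, 15.4 and 9.7 in the low set. Without 253J bead-negative replicate 3 the 253J values were -0.46 (adjusted p = 0.081) for MAMDC2 and 0.75 (adjusted p = 0.275) for GAL3ST4. The GAL3ST4 call ended with any of 4 libraries of 253J left out.

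Further lists had members called in both directions. For comparison, 18.4% of all genes tested were called higher and 18.4% lower in A375, and 14.4% and 18.2% in 253J. NRF2 targets, which protect against oxidants, were called lower for 10 of 17 and higher for 4 in A375. In 253J 13 of 20 were higher and 2 lower, and the set difference was called more positive in 253J for 10 of 16 members. Genes induced by p53 were called higher for 2 of 23 and lower for 9 in A375, and higher for 10 of 24 and lower for 5 in 253J. GDF15, a stress cytokine of that list, was called higher in both (0.84 and 0.40), and FAS, the death receptor, lower in both (-0.89 and -0.41). NF-kappaB targets and chemokines were called higher for 4 of 17 and lower for 5 in A375, and higher for 1 of 22 and lower for 13 in 253J. CXCL8, interleukin 8, was called lower in both (-0.71 and -0.51), and NFKBIZ, a nuclear inhibitor protein of that pathway, higher (0.56 and 0.41). ERK output genes were called higher for 11 of 18 and lower for 3 in A375, and higher for 9 of 18 and lower for 4 in 253J. EPHA2, a receptor of that list, was called lower in both (-0.64 and -0.40). VIM, the intermediate filament vimentin, was not called in A375 (-0.06) and was called lower in 253J (-0.22), and without A375 bead-positive replicate 3 its A375 value of -0.12 was called too (adjusted p = 0.0124).

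With the filter on low values, the bead comparison depended on the number set for some genes. In A375 the set difference differed between bead-positive and bead-negative libraries for 66 of 14118 genes, 20 with a more positive value among bead-positive libraries (0.142%) and 46 with a more negative one (0.326%). In 253J the counts were 636 (4.48%) and 261 (1.84%) of 14189, in a fit whose spread comes only from library pairs of the same set. Without that filter 0 genes passed the limma test in either line (1330 in A375 and 2468 in 253J at an unadjusted p under 0.05). Of the 66 genes in A375, 32 had the larger set difference among bead-negative libraries and 34 among bead-positive ones. The bead-positive and bead-negative set differences had opposite signs for 24 of these 66 and for 282 of the 897 genes in 253J. By size, 770 of the 897 had the larger set difference among bead-negative libraries and 127 among bead-positive ones. TXNIP shows this: its log2 difference was -1.30 among bead-positive and -2.18 among bead-negative 253J libraries, a difference of 0.88 ± 0.07 (SE; adjusted p = 1.11e-18). In A375 IGFBP3 was -1.06 among bead-positive and -0.35 among bead-negative libraries (-0.71 ± 0.06 (SE; adjusted p = 5.86e-12)). The high set holds 1 library of each bead status in 253J, so a property of 1 library cannot be told apart from one of the set there.

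The 4 set differences that can be formed within line and bead status share no library. Of 12509 genes, 2421 were higher in the high set in all 4 and 2936 lower in all 4. At a size of at least 0.5 on the log2 scale, 40 were higher and 19 lower in all 4. Over 10165 genes whose mean was 100 or more, the correlation between bead-positive and bead-negative differences was 0.77 in A375 and 0.67 in 253J, and between the lines 0.37 to 0.39. These are correlations across genes, which are not independent replicates, and they are given as a description. SERTAD4 (-0.99 and -0.80) and C8orf58 (-0.83 and -0.68) were the remaining 2 genes that the rule named as lower in both lines.

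**Figure D5:**
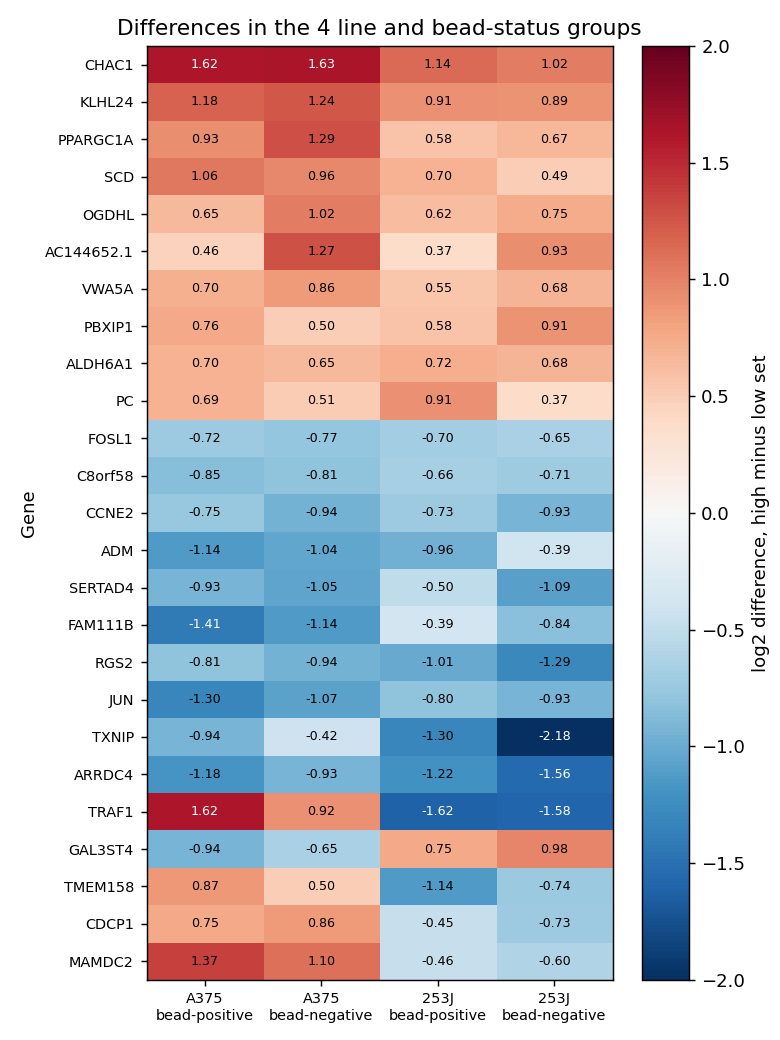
Log2 difference (high minus low set) of 25 genes named by rule as shared or opposite, in the 4 combinations of cell line and bead status, with the value printed in each cell. The 10 genes at the top are above 0 in all 4 columns, the next 10 below 0 in all 4, and the 5 at the bottom change sign between lines. These signs follow from the rule. It required no overlap of the sets in both lines for shared genes, and calls in opposite directions for the last 5.

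Median differences by gene length, base composition and chromosome were small. Over chromosomes they ran from -0.04 to 0.06 in A375 and from -0.04 to 0.03 in 253J. Because no source used here states the strand setting of the counting, reads of genes that overlap another gene on the opposite strand cannot be told apart from those of the partner, which touches A2M, ABAT, ACTA2, ALDH6A1, B3GALT2, CCND1, CCNE2, CTGF, DKK1, FAS, FTH1, GAPDHS, HSP90AA1, KRT18, KRT8, LAMA5, MAMDC2, PC, PMEL, PMEPA1, SERTAD4, SLC2A1, SNHG12, SPARC, SREBF2, SRSF2, THBS1, TPM1 and VIM.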

How the data were processed

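Per the labels' protocols, 12 RNA-seq libraries were made from poly(A) RNA of sorted A375 and 253J cells. The submitters' processing notes name GRCh38 and the programs DESeq2, HTSeq, STAR 2.4.2a and cutadapt, and other settings are not given in the sources used here. The authors deposited a signal per gene, in which reads per gene are divided by the library's size factor and rounded to 0.1, for 19423 genes in 1 table per line. Dividing by the step between low values gave whole reads within 0.055 for 100% of values, 14576506 to 17916519 per library.

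Number sets came from the labels. Genes with a mean of at least 10 were tested by limma-trend in R 4.3.3 (limma 3.58.1) as log2(value + 1), with bead status as a term and Benjamini-Hochberg adjustment at 0.05. With 3 residual degrees of freedom within a line, the spread rests largely on the estimate that limma shares across genes. Differences are high minus low set of log2(value + 1), where the added 1 shrinks differences of low genes, and "called" means past that threshold. The fit across both lines took line by bead status as 4 groups, and contrasts tested the difference between lines and between bead statuses. Alternatives were another filter or pseudocount, TMM scaling, edgeR 4.0.16 and DESeq2 1.42.0 on the recovered reads, averaged same-set libraries, no bead term, 1 bead status, a replicate block and omission of each library.

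Where the sets did not overlap and the mean reached 50, the genes named were the 10 with the largest difference shared by both lines in each direction and the 8 largest rises and falls per line. Whatever their overlap or mean, 5 genes called in opposite directions, up to 2 per gene list and a fixed set of markers were named too. Further list members are examples chosen after their values were seen. The sets, gene lists and rule were chosen with earlier results of these data known. Positions are from GENCODE release 29 on GRCh38, which matched 99.6% of genes, and promoters from RefSeq on GRCh38.p14. The code was tested on simulated data. Some list members are not reported here.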

Additional observations from a re-analysis of the deposited data

Results flagged for a closer look

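The difference between the sets itself differed between the lines for 39 of the 113 named genes, given here as the 253J minus the A375 log2 difference (limma, adjusted p of 0.05 or less). Positive values were found for genes of matrix, adhesion and signalling that were lower in the high set of both lines, THBS1 (1.11), COL8A1 (1.20), TM4SF18 (1.33), CXCL1 (1.35), EPHA2 (0.24), FAS (0.48), PMEPA1 (0.27), JUN (0.32) and ADM (0.41). They were also found for ACTB (0.21), SLC2A1 (0.15), FTH1 (0.27), FAM111B (0.66) and MT-ND1 (0.23). Among genes higher in the 253J high set, positive values were found for ABAT (1.11), PPL (1.10), HDAC5 (0.51) and GAL3ST4 (1.66). Genes higher in the A375 high set with a negative value were INSIG1 (-0.90), SCD (-0.41), SREBF2 (-0.28), OLMALINC (-1.14), CHAC1 (-0.54), PPARGC1A (-0.48) and GDF15 (-0.44). Other genes with a negative value were the epithelial and matrix genes KRT8 (-0.59), JUP (-0.55) and LAMA5 (-0.23), the signalling genes TRAF1 (-2.87), CDCP1 (-1.40), TMEM158 (-1.63) and IGFBP3 (-0.87), and CORO2B (-1.69), MAMDC2 (-1.76), ISG20 (-0.82), TXNIP (-1.06), HSPA8 (-0.23), MKI67 (-0.25) and VIM (-0.16). For 17 of the 39 genes the call of the line difference ended when 1 library was left out, and the values that follow are those for the library whose omission gave the largest adjusted p. Without 253J bead-negative replicate 3 they were ADM 0.13, CHAC1 -0.48, HSPA8 -0.06 and MKI67 -0.10. Without 253J bead-positive replicate 3 they were EPHA2 0.15 and FAM111B 0.43. Without A375 bead-negative replicate 1 they were FTH1 0.19, HDAC5 0.34, JUP -0.24, LAMA5 -0.15, PMEPA1 0.15, PPARGC1A -0.30 and SLC2A1 0.12. Without A375 bead-positive replicate 3 they were JUN 0.21, MT-ND1 0.12, PPL 0.90 and VIM -0.11. What set these differences was not tested.

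The set difference also differed between bead-positive and bead-negative libraries of 1 line, for 7 of the named genes in A375 and 24 in 253J. In A375 the bead-positive minus bead-negative value was negative for PMEL (-1.10), COL8A1 (-0.94), DKK1 (-0.72), IGFBP3 (-0.71), TXNIP (-0.51) and GDF15 (-0.41) and positive for TMEM158 (0.38). In 253J, positive values from a lower level in the high set, more so in the bead-negative libraries, were found for the chaperones HSPA8 (0.36), DNAJA1 (0.28) and CALR (0.14), the cell cycle genes CDC20 (0.39), MKI67 (0.28), PCNA (0.21), UHRF1 (0.26) and FAM111B (0.45), and KRT18 (0.39), KRT8 (0.27), VIM (0.11), THBS1 (0.50), IGFBP3 (0.64), TXNIP (0.88), PGAM1 (0.21), OAS3 (0.23), EPHA2 (0.18) and CDCP1 (0.27). INSIG1 (0.30) and SCD (0.21), which were higher in the high set, also had positive values. Negative values were found for ADM (-0.56), SKIL (-0.45), FTH1 (-0.22) and MT-ATP6 (-0.23). Each of these values rests on arms of 1 or 2 libraries, and without a filter on low values 0 genes passed the limma test in A375 (1330 at an unadjusted p under 0.05) and 0 in 253J (2468), while edgeR with the filter called 75 and 807.

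Among the 4 low-set libraries of 253J, 1 library stood far from the others for 3 of the 113 named genes. The other sets hold too few libraries for the gap test used and were not checked. A2M was at 1.9 in bead-negative replicate 1, B3GALT2 at 1.1 in bead-positive replicate 1 and PBXIP1 at 251.3 in bead-positive replicate 1. At the 95% threshold used, chance flags about 1 in 20 groups of values, with 1 group per gene here, and A2M and B3GALT2 are near 0 in these libraries.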

How the results depend on the processing

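Counts of called genes moved by over 1.5 times under several alternatives. In A375 (5189 genes) 3165 were called by DESeq2, 1670 without the bead-status term, 2903 from bead-positive and 2706 from bead-negative libraries only. In 253J (4626) the count was 2627 by DESeq2, 2486 with same-set libraries averaged, 1427 without the bead-status term, 2842 from bead-positive libraries only, and 3031 to 5201 with 1 library left out. Across both lines (4383) it was 2200 with averaging and 2709 without the bead-status term. For the difference between lines (1951) it was 1264 by DESeq2, 845 with averaging, and 1205 to 2443 with 1 library left out. For genes called in both lines in the same direction (2038) it was 1061 by DESeq2, 1185 with averaging and 388 without the bead-status term. For the dependence on bead status, 66 genes in A375 and 897 in 253J became 0 and 0 by limma without a filter on low values (1330 and 2468 at an unadjusted p under 0.05), while edgeR with the filter called 75 and 807. TMM scaling and edgeR kept each of these counts within 1.5 times, as did other pseudocounts, which were not run for the dependence on bead status.

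With a replicate block, 1192 genes were called in A375, where the set difference then rests on replicate number 2 alone. In 253J such a block could not be fitted beside the set, because replicate 3 is the high set there. In an alternative added after seeing the data, same-numbered 253J libraries were averaged as a replicate block and 5864 genes were called. Whether the numbers pair the libraries cannot be checked in A375 apart from the set. In the 253J low set, the difference between replicates 1 and 2 correlated between bead statuses at 0.05 across genes. Those replicates differed by little more than sampling noise (chi-square of 1.25 to 1.29 per degree of freedom). The correlation therefore cannot decide whether the numbers pair the libraries.

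Of 7899 values of named genes under alternatives, 7500 kept direction and call, 351 were no longer called, 46 were newly called and 2 reversed. Both reversals were PMEL in A375, at -0.24 without bead-negative replicate 1 and from bead-positive libraries only, and with 1 library left out its value ran from -0.24 to 0.86. Leaving out 1 library ended calls of 13 named genes in A375, 17 in 253J, 5 across both lines and 17 for the line difference. The causes were not tested. Arms of 1 library limit the precision, and such an arm takes its spread from the other arms.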

Other observations

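Gene groups outside those described above were mixed, and the genes named here were chosen after their values were seen. Of all genes tested, 18.4% were called higher and 18.4% lower in A375, and 14.4% and 18.2% in 253J. Of collagens and matrix glycoproteins, 12 of 32 were called higher in the high set and 8 lower in A375, and 10 of 24 higher and 3 lower in 253J. SPARC, a matrix protein that binds collagen, was called higher in both lines (log2 difference 0.36 and 0.26), as was NID1, a basement membrane linker (0.41 and 0.18). FN1, fibronectin, was called lower in A375 (-0.26) and higher in 253J (0.52), and VCAN, a proteoglycan, likewise (-0.38 and 0.25). COL12A1, a fibril-associated collagen, was called lower in A375 (-1.54) and was not called in 253J (0.02). Of TGF-beta targets, 8 of 22 were called higher and 6 lower in A375, and 0 and 9 of 22 in 253J by limma. SKIL and SMAD7, feedback inhibitors of that pathway, were called lower in both lines (-0.57 and -0.47 in A375, -0.41 and -0.37 in 253J). Without 253J bead-positive replicate 3 the 253J value of SKIL was -0.19 (adjusted p = 0.0904).

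Interferon-induced genes were called higher for 9 of 26 and lower for 1 in A375, and for 4 and 4 of 25 in 253J. The 253J counts are near the shares of all genes tested there (14.4% higher and 18.2% lower). IFI35 and ISG20 were called in A375 (0.62 and 0.95) and not in 253J (0.09 and 0.13), whereas OAS3, an oligoadenylate synthetase, was called lower in both (-0.31 and -0.37). Of antigen presentation genes, 6 of 20 were called higher and 1 lower in A375 and 3 of 18 higher and 1 lower in 253J. B2M, the light chain of class I molecules, was called at 0.09 and 0.15. MT2A, a metallothionein, was called higher in A375 (0.48) and lower in 253J (-0.94), with no overlap of the sets in either line. Of nuclear and small-RNA host transcripts, 3 of 14 were called higher and 4 lower in A375, and 2 of 13 higher and 4 lower in 253J. SNHG1 and SNHG12, hosts of small nucleolar RNAs, were called lower in both lines (-0.49 and -0.42 in A375, -0.31 and -0.50 in 253J). NEAT1, a nuclear RNA, was called higher in A375 (0.56) and not in 253J (0.09).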
